A study of Homo sapiens with 21 samples.

Results

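RNA levels of 7 genes linked to plasminogen activation, PLAU, PLAT, PLAUR, ANXA2, SERPINE2, SERPINB2 and SERPINF1, were followed. Neither protein nor protease activity was measured in these libraries. The genes were chosen by gene symbol among the 16383 genes of the deposited expression table. All 7 entered the tests, with 52 to 67425 reads per library. Their levels were described in 21 RNA-seq libraries of IMR90, 3 in each of 7 groups. IMR90 cells are fibroblasts from human lung, labelled as wild type. The proliferating group received no treatment, so it was neither irradiated nor transfected. The other 6 groups were irradiated to induce senescence and transfected with DharmaFECT and 5 nM siRNA on days 4 and 7 after irradiation, and were harvested on day 10. As controls, 2 of them received non-targeting siRNA, named NT3 in one group and NT4 in the other. The remaining 4 were knockdowns of CCND1 (cyclin D1), of CDK4, of CDK6, and of CDK4 with CDK6 (the dual knockdown). The radiation dose is not given in the sources used here, and the labels name 1 siRNA per target. Effects of irradiation and of transfection cannot be told apart in any comparison with proliferating cells, and effects of an siRNA on its target and outside it cannot be told apart in any knockdown. The labels do not say that libraries of a group came from separate cultures, so p-values measure the spread between these libraries only, which may be technical.

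Plasminogen is a circulating zymogen that is cut to plasmin, a protease that dissolves fibrin and degrades extracellular matrix. PLAU encodes urokinase (uPA) and PLAT encodes tissue-type activator (tPA), the proteases that make this cut. PLAUR encodes the urokinase receptor, which holds uPA at the cell surface, and ANXA2 encodes annexin A2, which with S100A10 binds plasminogen and tPA there. SERPINE2 (protease nexin-1) inhibits thrombin, uPA, tPA and plasmin, and SERPINB2 (plasminogen activator inhibitor 2) inhibits uPA and tPA and stays largely inside the cell. SERPINF1 (pigment epithelium-derived factor) has the serpin fold but is not known to inhibit proteases. Proteases and serpins of this system belong to the secretory phenotype of senescent fibroblasts. The 7 genes are thus 2 activators, 2 surface proteins and 3 serpins, and PLAUR and ANXA2 fall outside the label of activators and serpins.

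Depth over the genes of the table ranged from 12892442 to 21822152 reads per library. The targets were lowered in the libraries labelled for them: CCND1 fell to 11.8% of the level in the 6 control libraries, CDK4 to 8.67% and 9.41% in single and dual knockdown, and CDK6 to 16.4% and 20.6%. Fibroblast markers were high in every group, and the summed level of the 8 listed was 432820 to 536061 in controls and 655715 to 832337 in the dual knockdown. Most of this sum was COL1A1 and COL1A2, with means of 364839 and 262799 in the dual knockdown. Each of the other listed fibroblast markers had its highest mean in another group. The summed level of 4 epithelial markers was 257 to 319 in controls and 469 to 595 in CCND1, CDK6 and dual knockdown, nearly all of it KRT19, while KRT5 was at most 1.21 in any library. Endothelial markers summed to at most 31.6. The leukocyte sum, 650 to 1589, was nearly all CD68, with PTPRC at 8.90 or below, and was 868 to 1389 in controls and 1484 to 1589 in CDK4 knockdown. The cell cycle inhibitor gene CDKN1A measured 4963 to 5060.0 in proliferating cells, 28151 to 30843 in controls and 17118 to 18429 in the dual knockdown. MKI67, a marker of cycling cells, measured 7794 to 8417 in proliferating cells, 459 to 793 in controls and 86.1 to 111.1 in the dual knockdown. In bulk RNA, fewer cells expressing a gene and less RNA per cell cannot be told apart.

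On GRCh38 with GENCODE v44, PLAU lies at chr10:73909177-73917496 on the plus strand, PLAUR at chr19:43646095-43670547 on the minus strand and ANXA2 at chr15:60347134-60402883 on the minus strand. SERPINE2 lies at chr2:223975045-224039318 on the minus strand, SERPINB2 at chr18:63871692-63903888 on the plus strand and SERPINF1 at chr17:1762029-1777565 on the plus strand. RefSeq promoters of 300 bases on GRCh38.p14, from 250 bases before to 50 bases after a gene's start, matched 5 of the 7 genes. Printed here are those of SERPINB2, PLAUR and PLAU, the 3 members that were lower in both CDK6 and dual knockdown, and of ANXA2, which was not. Each is written 5′ to 3′ on the gene's strand, and capitals mark every match to TGANTCA, the core motif of the AP-1 factors, which reads alike on both strands.
SERPINB2, chr18:63887455-63887754, plus strand: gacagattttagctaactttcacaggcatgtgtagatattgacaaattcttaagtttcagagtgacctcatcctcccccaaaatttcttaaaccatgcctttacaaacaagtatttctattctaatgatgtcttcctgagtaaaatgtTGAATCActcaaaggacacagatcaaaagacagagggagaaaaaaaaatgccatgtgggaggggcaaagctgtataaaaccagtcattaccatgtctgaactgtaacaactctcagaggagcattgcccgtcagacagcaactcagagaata
PLAUR, chr19:43670120-43670419, minus strand: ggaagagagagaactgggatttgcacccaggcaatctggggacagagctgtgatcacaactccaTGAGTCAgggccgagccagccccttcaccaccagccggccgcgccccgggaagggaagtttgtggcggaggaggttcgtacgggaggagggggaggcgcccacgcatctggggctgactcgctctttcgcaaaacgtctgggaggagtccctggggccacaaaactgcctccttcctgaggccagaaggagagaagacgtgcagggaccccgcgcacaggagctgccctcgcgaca
PLAU, chr10:73910882-73911181, plus strand: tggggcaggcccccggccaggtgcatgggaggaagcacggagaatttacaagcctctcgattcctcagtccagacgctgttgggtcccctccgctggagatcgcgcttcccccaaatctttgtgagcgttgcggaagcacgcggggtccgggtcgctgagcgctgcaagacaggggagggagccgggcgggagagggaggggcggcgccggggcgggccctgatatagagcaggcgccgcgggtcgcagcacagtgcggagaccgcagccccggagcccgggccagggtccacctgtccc
ANXA2, chr15:60397937-60398236, minus strand: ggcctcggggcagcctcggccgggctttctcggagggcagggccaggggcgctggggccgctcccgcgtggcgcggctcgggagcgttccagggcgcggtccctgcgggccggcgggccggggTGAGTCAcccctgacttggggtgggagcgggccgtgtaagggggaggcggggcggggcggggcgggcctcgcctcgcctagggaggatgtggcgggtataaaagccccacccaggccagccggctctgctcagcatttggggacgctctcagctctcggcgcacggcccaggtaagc
The last letter of the match lay 96 bases before the start in SERPINB2, 180 bases before it in PLAUR and 121 bases before it in ANXA2. No match lay in the PLAU window, in the second PLAU promoter or in either of the 2 SERPINE2 promoters. Neither SERPINE2 window covered the start of its GENCODE canonical transcript, at chr2:224039286, so that stretch was not searched. TGANTCA occurred in 7.71% of 35116 RefSeq promoters of this length. TATAAA, searched on both strands, began 30 bases before the start of SERPINB2 and 31 bases before that of ANXA2, and occurred in 11.5% of promoters. These are matches of letters, not bound sites, and no match says only that the letters are not in this window.

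**Figure D1:**
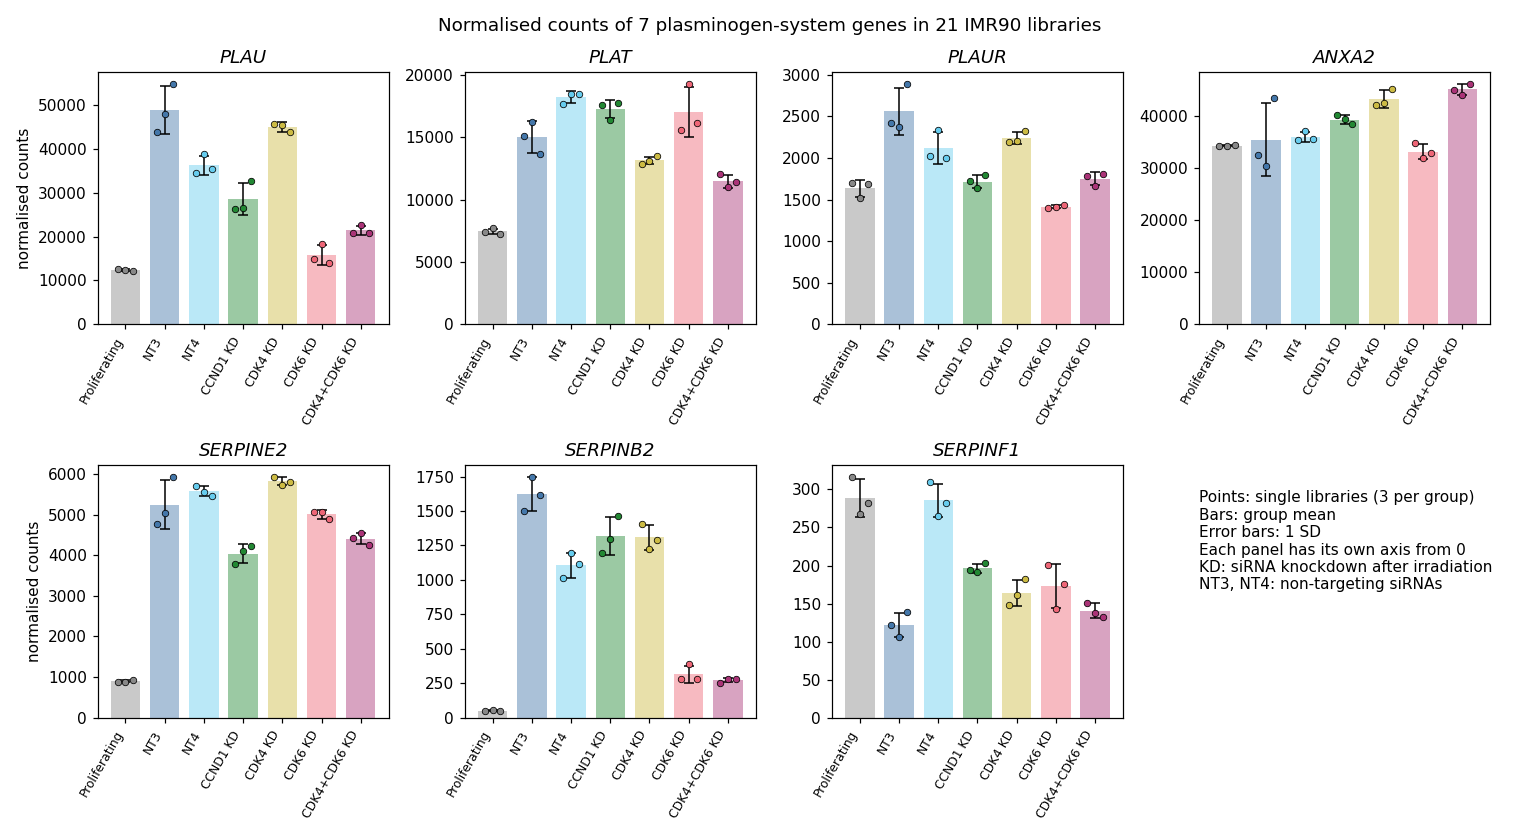
Normalised counts (y axis, from 0, with its own scale in each panel) of the 7 genes in 7 groups of 3 libraries; points are libraries, bars are group means and error bars are 1 SD. SERPINB2 lay between 45.4 and 56.4 in proliferating cells, between 1011 and 1746 in the control siRNA libraries and between 254 and 388 in CDK6 and dual knockdown.

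The first comparison asked how senescent cells with a control siRNA differed from proliferating cells. Of the 7 members, 5 were higher in the mean of NT3 and NT4 and 1 was lower, where 68.6% of the 11579 tested genes passed the threshold in either direction, 32.6% higher and 36.1% lower. All 5 that were higher were apart in every library, as were 54.1% of tested genes. The largest rises were in the serpins SERPINB2 and SERPINE2, followed by the activator PLAU. The median log2 difference was 1.14 over the members and -0.03 over all tested genes. Values are normalised counts, and differences are log2(value + 1) with limma's standard error and Benjamini-Hochberg adjusted p, past the threshold at 0.05. Folds are these differences on the linear scale.

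The activator PLAU measured 12555, 12396 and 12238 in proliferating cells. It measured 43844, 47833 and 54714 with NT3 and 34485, 38732 and 35269 with NT4. All 6 control libraries thus lay above all 3 proliferating libraries, by 3.38-fold (log2 1.76, SE 0.08, limma adjusted p = 4.07e-14). PLAT measured 7433, 7698 and 7283 in proliferating cells. Its control values were 15109, 16237 and 13685 with NT3 and 17685, 18492 and 18505 with NT4. Again no library overlapped, and PLAT was 2.21-fold higher (log2 1.14, SE 0.06, limma adjusted p = 4.06e-13).

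Among the surface proteins, PLAUR measured 1697, 1521 and 1689 in proliferating cells. It measured 2419, 2377 and 2892 with NT3 and 2023, 2339 and 1999.6 with NT4. The groups did not overlap, but the rise was small at 1.42-fold (log2 0.51, SE 0.06, limma adjusted p = 3.74e-07). ANXA2 was abundant and nearly level, with 34165, 34231 and 34285 in proliferating cells. Its NT3 libraries held 32501, 30410.5 and 43317 and its NT4 libraries 35243, 36965 and 35429, with NT3 replicate 3 well above the rest. The log2 difference was 0.05 with a 95% interval from -0.11 to 0.20 (limma adjusted p = 0.569). Reads of ANXA2 are uncertain because the processed copy ANXA2P2 is nearly identical to it, and how shared reads were assigned is not given in the sources used here. ANXA2P2 held 5.29 to 5.91% of the ANXA2 value in each library.

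Among the serpins, SERPINB2 measured 45.4, 56.4 and 51.4 in proliferating cells, from 52 to 58 reads. With NT3 it measured 1503, 1746 and 1618, and with NT4 1011, 1194 and 1115. This was a 25.8-fold rise (log2 4.69, SE 0.10, limma adjusted p = 1.45e-19), and 99.6% of tested genes had a smaller absolute change. SERPINE2 measured 887, 874 and 934 in proliferating cells. It measured 4772, 5048 and 5917 with NT3 and 5704, 5551 and 5464 with NT4. SERPINE2 was 6.001-fold higher (log2 2.59, SE 0.06, limma adjusted p = 1.45e-19), and here the 2 controls overlapped. SERPINF1 ran the other way only under NT3: it measured 316, 268 and 282 in proliferating cells, 121, 106.4 and 138 with NT3 and 309, 266 and 282 with NT4. The NT4 libraries overlapped the proliferating ones. The fall against the control mean (log2 -0.63, SE 0.11, limma adjusted p = 2.48e-05) was -1.24 against NT3 alone and -0.01 against NT4 alone (limma adjusted p = 0.925 for NT4). No other member's call in this comparison depended on the control chosen.

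A second scaling, median centring of each library, moved the median of all tested genes in this comparison from -0.03 to 0.09 and the genes called higher from 3769 of 7945 to 4614 of 7969. Under median centring and quantile normalization the members kept their directions, apart from ANXA2, which was not past the threshold and turned to -0.03 under the latter.

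The controls themselves differed. In NT4 against NT3, 5 of the 7 members passed the threshold, 2 higher and 3 lower, where 27.8% of all tested genes did, 14.7% higher and 13.1% lower. All 5 were apart in every library, as were 34.9% of tested genes. SERPINF1 was 1.22 higher (SE 0.12, limma adjusted p = 2.43e-07) and PLAT 0.28 higher, while SERPINB2 was 0.55 lower (log2 -0.55, SE 0.11, limma adjusted p = 0.00107), PLAU -0.43 and PLAUR -0.27. The calls of PLAT and PLAUR were lost when only these 2 groups were fitted (limma adjusted p = 0.0968 and 0.158), and that of PLAUR without NT4 replicate 3 (0.0529). Without NT3 replicate 3, ANXA2 and SERPINE2 also passed, at 0.19 and 0.18. For this reason each knockdown was also set against NT3 alone and NT4 alone. All 4 knockdown comparisons share the 6 control libraries.

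**Figure D2:**
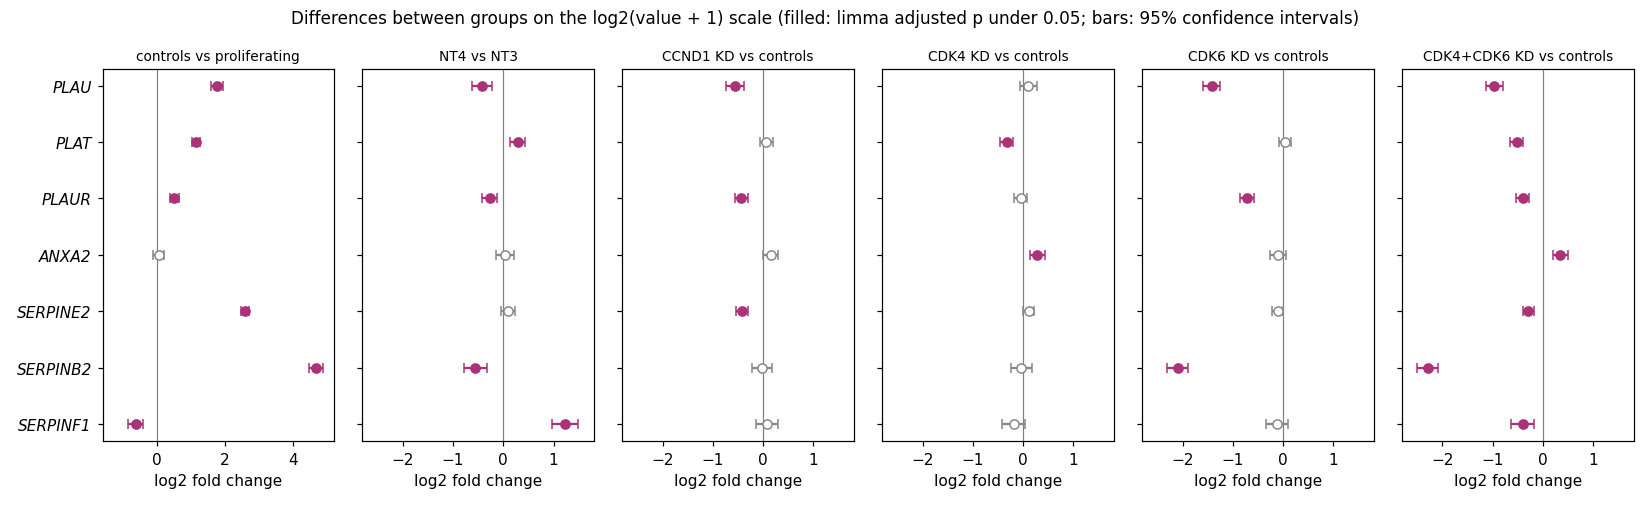
Log2 fold change (x axis, log2(value + 1) scale) of each member (y axis) in 6 comparisons, with 95% confidence intervals; filled points passed a limma adjusted p of 0.05, and the first panel has a wider axis. SERPINB2 lay farthest below 0 in CDK6 and dual knockdown, at -2.10 and -2.30, followed by PLAU at -1.42 and -0.97, and all 7 members passed in the dual knockdown.

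Under CCND1 knockdown 3 of the 7 members passed the threshold and all 3 were lower, where 31% of tested genes passed in either direction, 16.7% higher and 14.4% lower. PLAU measured 26259, 26563 and 32700 and lay below all 6 controls (log2 -0.56, SE 0.08, limma adjusted p = 2.51e-05). Its receptor PLAUR measured 1724, 1636 and 1791, likewise below every control (log2 -0.44, SE 0.06, limma adjusted p = 2.48e-05). SERPINE2 measured 3779, 4109.8 and 4237 and was lower by a like amount (log2 -0.42, SE 0.06, limma adjusted p = 7.33e-06). All 3 passed with either control alone, and 21.2% of tested genes likewise did not overlap the controls. SERPINB2, at 1195, 1298 and 1466, overlapped the controls (log2 -0.02, 95% interval -0.23 to 0.18), as did PLAT, at 17635, 16420 and 17747 (log2 0.06, 95% interval -0.07 to 0.19). Against NT3 alone both passed, SERPINB2 at -0.30 and PLAT at 0.20. ANXA2 measured 40097, 39271 and 38358 (log2 0.15, limma adjusted p = 0.142) and passed at 0.22 without NT3 replicate 3. SERPINF1 measured 195, 192 and 203, between the 2 controls, so it was 0.69 above NT3 and -0.53 below NT4.

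Fewest members passed under CDK4 knockdown. These were PLAT, lower, and ANXA2, higher, or 2 of 7, where 16% of tested genes passed, 8.46% higher and 7.55% lower. PLAT measured 12891, 13093 and 13498, below every control (log2 -0.33, SE 0.06, limma adjusted p = 0.000817), as 11.2% of tested genes lay apart from the controls. Against NT3 alone the fall was -0.19 and did not pass (0.0597). ANXA2 measured 41991, 42361 and 45098 and overlapped the single high NT3 library (log2 0.28, SE 0.07, limma adjusted p = 0.0114). Its call was lost when only the compared groups were fitted (0.126) and without CDK4 knockdown replicate 3 (0.0657). PLAU, at 45668, 45393 and 43660.3, lay within the control range (log2 0.10, 95% interval -0.07 to 0.27), and was 0.31 above NT4 alone (limma adjusted p = 0.0344) and -0.11 from NT3 alone. SERPINB2 measured 1408, 1227 and 1292 (log2 -0.03, 95% interval -0.23 to 0.17), and PLAUR and SERPINE2 also overlapped the controls, at 2196 to 2326 and 5735 to 5923. SERPINE2 passed at 0.15 without NT3 replicate 3. SERPINF1, at 148, 161 and 183, was 0.42 above NT3 and -0.80 below NT4.

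Under CDK6 knockdown PLAU, its receptor PLAUR and SERPINB2 passed, 3 of 7 and all lower, where 41.9% of tested genes passed, 21.1% higher and 20.8% lower. The number of members called was thus near the share of all tested genes. PLAU measured 14902, 18280 and 13995, or 37.0% of the control mean (log2 -1.42, SE 0.08, limma adjusted p = 2.58e-11). PLAUR measured 1406, 1406 and 1437, or 60.5% of it (log2 -0.71, SE 0.06, limma adjusted p = 1.55e-08). SERPINB2 measured 279, 388 and 281, or 23.1% of it (log2 -2.10, SE 0.10, limma adjusted p = 1.51e-12). None of these libraries overlapped a control, which held for 28.6% of tested genes. All 3 genes passed with either control alone, and the absolute changes exceeded those of 98.3%, 90.6% and 99.6% of tested genes. The other activator, PLAT, overlapped the controls at 15625, 19297 and 16190.5 (log2 0.04, 95% interval -0.09 to 0.17), and was 0.18 above NT3 alone (limma adjusted p = 0.0436). SERPINE2 measured 5068, 5067 and 4885 (log2 -0.11, limma adjusted p = 0.124), and it passed under quantile normalization (-0.16) and without NT3 replicate 1 (-0.14). ANXA2 measured 34677, 31804 and 32883 (log2 -0.10, 95% interval -0.25 to 0.06). SERPINF1, at 200.51, 143 and 175, was 0.50 above NT3 and -0.73 below NT4.

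Under the dual knockdown all 7 members passed, 6 lower and ANXA2 higher, where 44% of tested genes passed, 22.5% higher and 21.5% lower. SERPINB2 measured 254, 283 and 278, or 19.9% of the control mean (log2 -2.30, SE 0.10, limma adjusted p = 1.7e-13). PLAU measured 20782, 22653 and 20763, or 50.4% of it (log2 -0.97, SE 0.08, limma adjusted p = 4.48e-09). Both lay below every control library. Apart from SERPINF1, no member overlapped the controls, which held for 28.3% of tested genes. PLAT measured 12056, 10995 and 11420.2 and was the lowest of the irradiated groups (log2 -0.52, SE 0.06, limma adjusted p = 5.47e-07). PLAUR, at 1787, 1664 and 1809, fell by 0.41 (limma adjusted p = 2.36e-05), and SERPINE2, at 4419, 4552 and 4263, by 0.29 (limma adjusted p = 0.000212). ANXA2 measured 44997, 43983 and 46071, above every control (log2 0.35, SE 0.07, limma adjusted p = 0.000743). The ANXA2 call was lost under quantile normalization (0.09, limma adjusted p = 0.399). SERPINF1, at 151, 138 and 132, overlapped NT3, and its fall (log2 -0.41, limma adjusted p = 0.0041) turned to 0.21 against NT3 alone (0.188). The other 6 members passed in the same direction with either control. The summed fibroblast markers, mostly COL1A1 and COL1A2, and the summed epithelial markers were also higher in these libraries, as given above. CDKN1A and MKI67 were lower, and the part of all these genes in the differences was not tested.

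**Figure D3:**
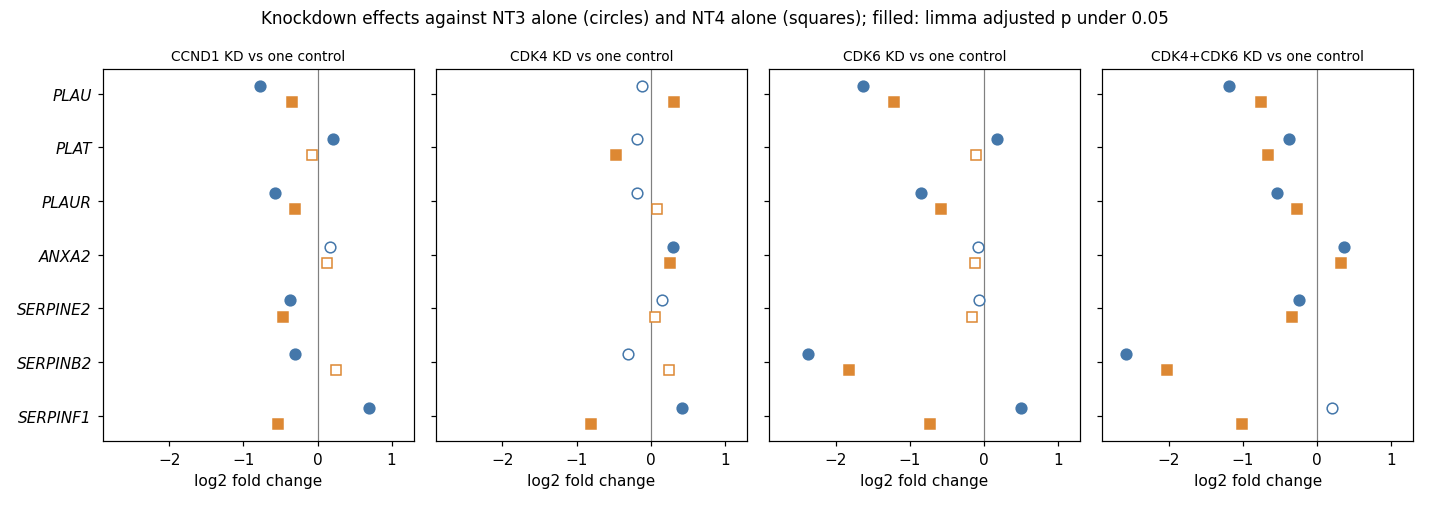
Log2 fold change of each member under the 4 knockdowns against NT3 alone (circles) and NT4 alone (squares); filled symbols passed a limma adjusted p of 0.05. SERPINF1 lay on opposite sides of 0 in all 4 panels, while PLAU, PLAUR and SERPINB2 lay below 0 with either control in CDK6 and dual knockdown.

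The knockdowns were then compared with each other, so no control library enters the differences. The standard errors and p-values still rest on the spread in all 21 libraries, controls included. Between CDK6 and CDK4 knockdown 6 of 7 members passed, where 34.8% of tested genes did. In CDK6 knockdown SERPINB2 was lower (log2 -2.06, SE 0.11, limma adjusted p = 1.35e-11), as were PLAU (-1.52), PLAUR (-0.66), ANXA2 (-0.38) and SERPINE2 (-0.22), and PLAT was higher (0.37). SERPINF1 did not pass (0.07, 95% interval -0.19 to 0.33). The urokinase and tissue-type activators thus differed in opposite directions between the 2 single knockdowns.

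Between the dual and the CDK6 knockdown 4 of 7 members passed, where 13% of tested genes did. PLAU (log2 0.45, SE 0.10, limma adjusted p = 0.00239), PLAUR (0.31, limma adjusted p = 0.00716) and ANXA2 (0.44, limma adjusted p = 0.00119) were higher in the dual knockdown, and PLAT was lower (-0.56, limma adjusted p = 1.19e-05). ANXA2 did not pass under quantile normalization (0.22, 0.149). The SERPINB2 libraries of the 2 groups overlapped (log2 -0.20, 95% interval -0.44 to 0.04), and SERPINE2 (-0.18, limma adjusted p = 0.0636) and SERPINF1 (-0.29, limma adjusted p = 0.135) did not pass. The SERPINE2 libraries did not overlap, and it passed under quantile normalization (-0.23, limma adjusted p = 0.0125), when only the compared groups were fitted (0.00915) and with DESeq2 (0.0271). SERPINF1 passed without CDK6 knockdown replicate 2 (-0.42, limma adjusted p = 0.0409). Between the dual and the CDK4 knockdown 5 of 7 passed, all lower, where 30.6% of tested genes passed and 14.8% were lower: SERPINB2 (-2.26), PLAU (-1.07), SERPINE2 (-0.40), PLAUR (-0.36) and PLAT (-0.20). The PLAT call there rested on a limma adjusted p of 0.0412 and was lost without filtering (0.0625), under median centring (0.0549) and without any 1 of the CDK4 knockdown replicates or dual knockdown replicates 2 and 3 (0.0669 to 0.137).

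CCND1 knockdown stood apart from the CDK6 and dual knockdowns at SERPINB2. Against the dual knockdown 4 of 7 members passed, where 20.3% of tested genes did and 11.2% were higher, and all 4 were higher in CCND1 knockdown: SERPINB2 (2.27), PLAT (0.59), SERPINF1 (0.49) and PLAU (0.41). Against CDK6 knockdown 4 passed, where 12.2% of tested genes did: SERPINB2 (2.07), PLAU (0.86) and PLAUR (0.28) were higher and SERPINE2 was lower (-0.31). PLAUR lost that call without CCND1 knockdown replicate 1 or 3 or CDK6 knockdown replicate 1 (limma adjusted p = 0.0503, 0.0768 and 0.0532). Against CDK4 knockdown 4 passed, where 23.3% did: PLAU (-0.66), SERPINE2 (-0.53) and PLAUR (-0.39) were lower and PLAT was higher (0.39), and SERPINB2 did not pass (0.01, 95% interval -0.23 to 0.25). ANXA2 did not pass in these 3 comparisons but did when only the compared groups were fitted, at -0.20 against dual, 0.25 against CDK6 and -0.14 against CDK4 knockdown (limma adjusted p = 0.00367, 0.000358 and 0.0269), and with DESeq2 against CDK6 knockdown (adjusted p = 0.0397).

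If the log2 effects of CDK4 and CDK6 knockdown added up, the dual knockdown would equal their sum. Of the 7 members, 2 departed from it, where 6.35% of tested genes did. PLAUR was 0.36 higher than the sum (SE 0.10, limma adjusted p = 0.031), since the dual effect of -0.41 was smaller in size than -0.05 and -0.71 added. SERPINE2 was lower than the sum (log2 -0.29, SE 0.08, limma adjusted p = 0.0411), with single effects of 0.11 and -0.11 and a dual effect of -0.29. PLAU lay 0.35 above the sum without passing (limma adjusted p = 0.103), and SERPINB2 -0.17 from it (95% interval -0.48 to 0.15). PLAU passed with NT3 alone (0.57, limma adjusted p = 0.00626), without NT3 replicate 3 (0.0489) and without CDK6 knockdown replicate 2 (0.0258). With NT3 alone PLAT (-0.38, limma adjusted p = 0.0141) and SERPINF1 (-0.71, 0.00809) passed as well. Neither the PLAUR nor the SERPINE2 call held with NT4 as the only control (limma adjusted p = 0.29 and 0.155) or when only the compared groups were fitted (0.0711 and 0.0895). Leaving out single libraries left between 0 and 3 members past the threshold. PLAUR lost its call without CDK4 knockdown replicate 1 or 2, any CDK6 knockdown replicate or dual knockdown replicate 1 or 3 (limma adjusted p = 0.0616 to 0.0833). SERPINE2 kept its call only without NT3 replicate 2 or 3 or dual knockdown replicate 2. The CDK6 level was not lowered alike, at 16.4% of the controls in single and 20.6% in dual knockdown, and its part in these departures was not tested.

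Each knockdown was also set against proliferating cells. PLAU remained above proliferating cells in all 4 knockdowns, 3.62-fold in CDK4, 2.29-fold in CCND1, 1.72-fold in dual and 1.26-fold in CDK6 knockdown (limma adjusted p = 0.00406 for CDK6). SERPINB2 was 25.2-fold and 25.4-fold higher in CDK4 and CCND1 knockdown and 6.03-fold and 5.25-fold higher in CDK6 and dual knockdown. SERPINE2 was 4.49-fold to 6.47-fold higher in all 4, and PLAT 1.54-fold to 2.31-fold. PLAUR exceeded proliferating cells in CDK4 knockdown (1.37-fold), did not pass in CCND1 (log2 0.07) and dual knockdown (0.10), which both passed under median centring (0.20 and 0.23), and was lower in CDK6 knockdown (log2 -0.21, SE 0.07, limma adjusted p = 0.0183). That fall was lost under median centring (-0.08), under quantile normalization (-0.17, limma adjusted p = 0.055) and without proliferating replicate 1 or 3 (0.0715 and 0.0676). ANXA2 was higher in CDK4 knockdown (0.33) and dual knockdown (0.40), the latter not under quantile normalization (0.06). In CCND1 knockdown its libraries lay above the proliferating ones without passing (log2 0.20, limma adjusted p = 0.0509), and it passed with a filter on a mean of 100 (0.0469), under median centring (0.32, 0.00268), when only the compared groups were fitted (2.62e-05), with edgeR (0.0358) and with DESeq2 (0.0181). SERPINF1 was lower in all 4 (log2 -0.55 to -1.03). In all, 5, 7, 6 and 6 members passed in CCND1, CDK4, CDK6 and dual knockdown, where 63.8%, 62.7%, 66.1% and 65.6% of tested genes did.

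Ordered by mean from the lowest, PLAU ran from proliferating cells through CDK6, dual and CCND1 knockdown, NT4 and CDK4 knockdown to NT3, and of neighbours in this order CDK4 knockdown and NT3 alone overlapped. For PLAT the order was proliferating, dual, CDK4 knockdown, NT3, CDK6 knockdown, CCND1 knockdown and NT4, with overlap of each neighbouring pair from NT3 upward. PLAUR was lowest in CDK6 knockdown, and its proliferating, CCND1 and dual knockdown libraries overlapped in turn above it. SERPINB2 was lowest in proliferating cells, then in the dual and CDK6 knockdowns, which overlapped, then in NT4. SERPINE2 was far lowest in proliferating cells, and the CDK6 knockdown overlapped NT3, which overlapped NT4. SERPINF1 fell into a low run of NT3 and the 4 knockdowns, each overlapping the next, and a high pair of NT4 and proliferating cells. ANXA2 overlapped from CDK6 knockdown through proliferating cells and NT3 to NT4, and was higher in CCND1 and then in CDK4 and dual knockdown, which overlapped.

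Divided by the length of each gene's GENCODE canonical transcript, levels can be compared between genes. In proliferating cells ANXA2 was the most abundant at 22025 normalised counts per kb, followed by PLAU at 5291 and PLAT at 2440.0, and SERPINB2 was the least at 26.8. With NT3, ANXA2 held 22786 and PLAU 20827 per kb, with SERPINB2 at 851 and SERPINF1 at 84.9. The NT3 libraries of ANXA2 ran from 19569 to 27874 per kb. With NT4, ANXA2 held 23088 and PLAU 15434 per kb, with SERPINB2 at 580.51 and SERPINF1 at 198.63. The nearness of PLAU to ANXA2 and the low SERPINF1 level were thus seen with NT3 and not with NT4. The ratio of PLAU to PLAT per kb was 2.21, 2.10 and 2.196 in proliferating cells, 3.79, 3.85 and 5.22 with NT3 and 2.55, 2.74 and 2.49 with NT4. It was 1.246, 1.24 and 1.13 in CDK6 knockdown, the lowest of the 7 groups, and 4.63, 4.53 and 4.23 in CDK4 knockdown. This ratio was chosen after the values were seen and carries no test.

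**Figure D4:**
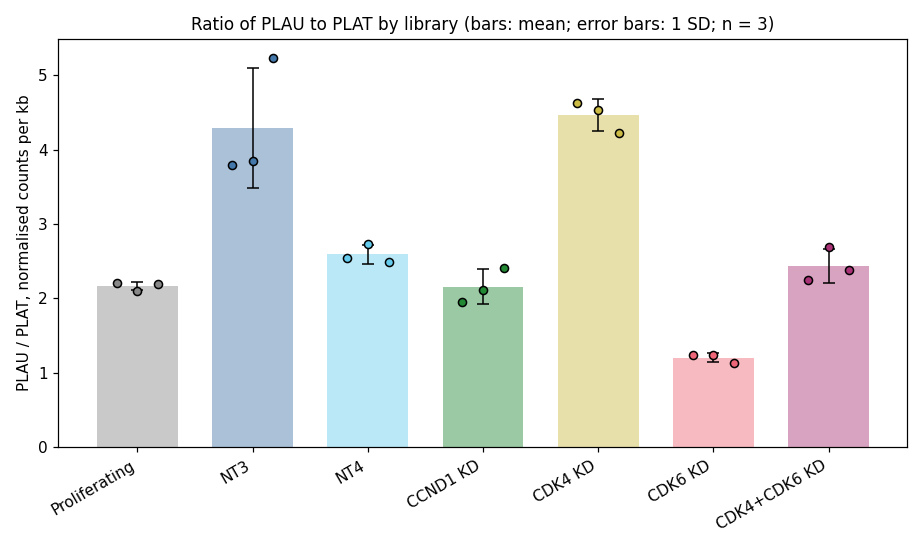
Ratio of PLAU to PLAT in normalised counts per kb of canonical transcript (y axis, from 0) by group; points are libraries, bars are means and error bars are 1 SD. The 3 CDK6 knockdown libraries lay between 1.13 and 1.246 and the 3 CDK4 knockdown libraries between 4.23 and 4.63.

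Across the 18 irradiated libraries, which share their groups, PLAU and PLAUR had a Pearson r of 0.935, PLAU and SERPINB2 0.882, and PLAU and PLAT -0.02. PLAT and ANXA2 had an r of -0.731. These values follow the group means and are descriptions. Among 9108 genes with a mean of at least 100, those most like PLAU were PPIF (0.981), RIPK2 (0.977) and FZD8 (0.975), and those most like PLAUR were SLC3A2 (0.974), SQSTM1 (0.971) and GADD45A (0.952). SERPINB2 was most like EHF (0.97), the cytokine gene IL1B (0.97) and CDK6 (0.969), and the CDK6 level was itself set by the siRNA in 6 of these libraries. PLAT was most like MAPK13 (0.898), RGS5 (0.897) and PHKA1 (0.88), SERPINE2 like NUP107 (0.891), SPRY2 (0.882) and LETM2 (0.867), and SERPINF1 like HMGA1 (0.904), CABLES1 (0.867) and FZD1 (0.862). ANXA2 was most like its copy ANXA2P2 (0.981), then VDAC1 (0.944) and SLC39A1 (0.888).

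The rest of the system was described from 4 lists. Plasminogen itself, PLG, was near 0, with a mean of 0.25 over all libraries, as was SERPINF2, the main inhibitor of plasmin, at 0.09. Of 16 receptors, cofactors and clearance genes, 15 were tested. Of all tested genes, the shares called higher and lower were 32.6% and 36.1% in controls against proliferating cells, 16.7% and 14.4% in CCND1, 8.46% and 7.55% in CDK4, 21.1% and 20.8% in CDK6 and 22.5% and 21.5% in dual knockdown, and each list's counts are to be read against these. In controls against proliferating cells 6 were higher and 4 lower, or 66.7% called where 68.6% of all genes were, the latter including the plasminogen receptors ENO1 (log2 -1.15) and PLGRKT (-0.76) and the annexin A2 partner S100A10 (-0.97). Under the dual knockdown 11 were higher and none lower, or 73.3% called where 44% of all genes were, with a median of 0.36 against 0.00 for all tested genes, including PLGRKT (0.65), the integrin subunit ITGAV (0.57) and S100A10 (0.57). CCND1 knockdown raised 8 and lowered none (53.3% called, where 31% of all genes were), CDK6 knockdown raised 9 and lowered 1 (66.7%, where 41.9% were), and CDK4 knockdown raised 6 and lowered 1 (46.7%, where 16% were). The 8 became 5 with NT3 alone or under quantile normalization, and the 9 became 4 with NT4 alone. Between NT4 and NT3 themselves 4 of these 15 genes were higher and 5 lower, or 60% called where 27.8% of all genes were. ITGAV (0.55) was higher and PLGRKT (-0.48) lower in NT4. The S100A10 libraries of the dual knockdown overlapped the controls.

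Of 8 other annexins, 7 were tested, and 3 rose and 3 fell in controls against proliferating cells, or 85.7% called where 68.6% of all genes were. CDK6 knockdown and the dual knockdown each raised 5 and lowered none, among them ANXA6 (0.46 and 0.48) and ANXA1 (0.34 and 0.55). This was 71.4% of the annexins tested, where 41.9% and 44% of all genes were called. The ANXA1 libraries of CDK6 knockdown overlapped the controls, and ANXA1 was itself 0.51 higher in NT4 than in NT3. CCND1 knockdown raised 3 and CDK4 knockdown 2, or 42.9% and 28.6% where 31% and 16% of all genes were called, and each of these became 1 with NT4 alone. Of 20 other serpins, 10 were tested, 5 rose and 3 fell in controls against proliferating cells (80%, where 68.6% of all genes were called), with SERPING1, the C1 inhibitor, 1.72 higher. SERPINB8 measured 1046 to 1134 with NT3, 797 to 906 with NT4 and 548 to 623 in CDK6 knockdown. Its fall against the controls was -0.71 in CDK6 knockdown (SE 0.07, limma adjusted p = 1.64e-07) and -0.50 in the dual knockdown. SERPINB1 rose by 0.43 and 0.50 in these groups. The other serpins called numbered 1 higher and 2 lower in CDK6, 2 and 3 in dual, 1 and 2 in CDK4 and 0 and 2 in CCND1 knockdown. These are 30%, 50%, 30% and 20% of the 10, where 41.9%, 44%, 16% and 31% of all genes were called. The counts depended on the control: with NT3 alone 5 were lower in both CCND1 and CDK6 knockdown, and with NT4 alone none was lower in CCND1 and CDK4 knockdown and 1 in dual knockdown, while 2 were higher in each of CCND1, CDK4 and CDK6 knockdown.

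Of 13 plasminogen, contact, tissue factor and thrombin genes, 8 were tested. In controls against proliferating cells 4 rose, led by TFPI2 (2.51), a protease inhibitor that acts on plasmin, and 1 fell, or 62.5% called where 68.6% of all genes were. F3, tissue factor, which starts coagulation, measured 16382 to 19404 in controls and 24743 to 26592 in the dual knockdown (log2 0.54, SE 0.06, limma adjusted p = 1.2e-07). TFPI2 fell in CCND1 (-0.47), CDK6 (-0.49) and dual knockdown (-1.01), though its CDK6 knockdown libraries, at 2602 to 4362, overlapped the controls. The thrombin receptor F2R rose in all 4 knockdowns, by 0.57 in CCND1, 0.36 in CDK4, 0.65 in CDK6 and 0.67 in dual knockdown. F2R was itself lower in NT4 than in NT3 (log2 -0.29, limma adjusted p = 0.00501). The counts were 2 higher and 3 lower in CCND1, 3 and 1 in CDK4, 3 and 3 in CDK6 and 2 and 3 in dual knockdown. These are 62.5%, 50%, 75% and 62.5% of the 8, where 31%, 16%, 41.9% and 44% of all genes were called. Between NT4 and NT3 themselves 1 of the 8 was higher and 2 were lower, or 37.5% called where 27.8% of all genes were.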

How the data were processed

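RNA was taken up in TRIzol and sequenced after poly(A) capture, per the labels' protocols. Per the submitters' processing notes, the authors used Trimmomatic 0.38.1, HISAT2 2.2.1, featureCounts 2.0.3, FastQC 0.74, MultiQC and DESeq2 2.11.40.8 with GRCh38 (hg38). The annotation and the strand setting are not given in the sources used here. The deposited signal is the authors' normalised count, and each value was a whole number of reads divided by 1 size factor per library (100% of values whole within 0.1 read).

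A linear model with a mean for each group and trended variances was fitted to log2(value + 1), so with a pseudocount of 1, over all 21 libraries (limma 3.58.1, R 4.3.3). Genes at 10 or more in at least 3 libraries were tested, 11579 of 16383. The 17 comparisons were two-sided and adjusted by Benjamini-Hochberg over all tested genes within each. Alternatives were other pseudocounts, filters and scalings, single controls, a fit of the compared groups alone, edgeR 4.0.16 and DESeq2 1.42.0 on the recovered reads, leaving out each library, and, added after seeing the data, a replicate block on sets of library numbers. Columns carry no replicate number, so replicate numbers follow column order and are names only.

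Named are the 7 members, in each list up to 3 genes past the threshold with the largest change and a mean of at least 100, and the 3 genes most correlated with each member. Genes named as absent, and the examples kept from these, were chosen after their values were seen. The members, the lists and the rule were chosen with earlier results of these data known. Tested on simulated data for the dual knockdown with 11467 genes, the fit recovered 44%, 86%, 100% and 100% of changes of 1.25, 1.5, 2 and 4-fold. It also called 15 unchanged genes. Only 50 genes were changed at each fold, whereas 44% of genes were called in the real comparison, so recovery there may differ. Figures were drawn with matplotlib.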

Additional observations from a re-analysis of the deposited data

Results flagged for a closer look

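A test of the difference itself found 2 members at which the dual knockdown was not the sum of both single knockdowns: PLAUR lay 0.358 above the sum on the log2 scale, and SERPINE2 differed from it by -0.292. Neither difference was stable: PLAUR lost its call in 10 of 27 alternatives and SERPINE2 in 15 of 27, both of them with NT4 as the only control (limma adjusted p = 0.29 and 0.155) and when only the compared groups were fitted (0.0711 and 0.0895). The summed fibroblast markers, mostly COL1A1 and COL1A2, were also higher in the dual knockdown than in every other group, and their part was not tested. CDK6 stood at 20.6% of the control level in the dual and 16.4% in the single knockdown, and the part of this was not tested either.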

How the results depend on the processing

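The table's columns carry no replicate numbers, but the library numbers of the 18 irradiated libraries run in 3 sets of consecutive numbers with each group once. Correlations of the deviations from the group means were low within these sets: the 45 pairs within a set ran from -0.11 to 0.10 (median 0.04, across 11579 genes). The 90 other pairs had a median of -0.02 (-0.14 to 0.16). Of the 3 sets, 13 of 18 libraries correlated best with their own, and the main fits did not use the sets. A replicate block on the sets, chosen after seeing the data, changed 1 call, the departure of PLAU from the sum (0.35, limma adjusted p = 0.0458), and moved the members past the threshold there from 2 to 3. Of 1361 alternative values for the 79 differences past the threshold, 1311 kept direction and call, 49 lost the call and 1 reversed, which was SERPINF1 in the dual knockdown against NT3 alone (0.21). For the 40 differences not past it, 690 of 760 were alike, 34 passed and 36 changed sign. The cause of these changes was not tested.

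Members past the threshold changed from 5 to 3 in NT4 against NT3, from 2 to 1 in CDK4 knockdown and from 2 to 0 in the departure from the sum when only the compared groups were fitted. With NT3 alone they changed from 3 to 6 in CCND1 knockdown, from 3 to 5 in CDK6 knockdown and from 2 to 5 in the departure. With NT4 alone they became 4 in CDK4 knockdown and 0 in the departure, which also fell to 1 with no filter and under quantile normalization. Leaving out single libraries gave 1 to 3 in CDK4 knockdown, with 1 in the fit without CDK4 knockdown replicate 3, and 0 to 3 in the departure.

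Signs changed under quantile normalization for ANXA2 in controls against proliferating cells (-0.0272), the departure (-0.0462), CCND1 against dual (0.0547) and dual against CDK4 knockdown (-0.177), for PLAT in CCND1 (-0.0239) and CDK6 knockdown (-0.0928) and for SERPINB2 in CCND1 against CDK4 knockdown (-0.0243). Under median centring ANXA2 in CDK6 knockdown against proliferating cells became 0.0768. With NT4 alone, CCND1 knockdown gave PLAT -0.0787, SERPINB2 0.253 and SERPINF1 -0.53, CDK4 knockdown gave PLAUR 0.0844 and SERPINB2 0.24, CDK6 knockdown gave PLAT -0.10, and the departure of SERPINF1 was 0.51. With NT3 alone, CDK4 knockdown gave PLAU -0.11 and SERPINF1 0.42, CDK6 knockdown gave SERPINF1 0.50, and the departure of SERPINB2 was 0.11.

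Leaving out single libraries gave ANXA2 -0.0275 to 0.1001 in controls against proliferating cells and -0.0649 to 0.19 in NT4 against NT3. SERPINB2 ranged from -0.102 to 0.0455 in CCND1 knockdown, from -0.0867 to 0.0126 in CDK4 knockdown and from -0.0690 to 0.0783 in CCND1 against CDK4 knockdown. PLAT ranged from -0.0546 to 0.0976 in CDK6 knockdown and from -0.0346 to 0.118 in CCND1 against CDK6 knockdown, and PLAUR from -0.0675 to 0.00417 in CCND1 against dual knockdown. SERPINF1 ranged from -0.229 to 0.0107 in CDK6 knockdown, from -0.230 to 0.00973 in the departure and from -0.0415 to 0.198 in CDK6 against CDK4 knockdown.

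Over all tested genes, fitting only the compared groups changed the number called from 3216 to 976 in NT4 against NT3, from 3594 to 2285 in CCND1 and from 1854 to 798 in CDK4 knockdown, from 735 to 394 in the departure, from 1414 to 2449 in CCND1 against CDK6 and from 1504 to 2479 in dual against CDK6 knockdown. With NT4 alone the count was 2235 in CCND1 knockdown and 455 in the departure, and with NT3 alone it was 2962 in CDK4 knockdown and 1899 in the departure. Leaving out single libraries gave counts as low as 1062 in CDK4 knockdown (without its replicate 2; 1176 without its replicate 1), 927 and 937 in the comparisons of CCND1 and dual with CDK6 knockdown (both without CDK6 knockdown replicate 3), and 442 to 1438 in the departure, the highest without NT3 replicate 3. Median centring moved the genes called higher against proliferating cells to 4535 of 7481 in CCND1, 4296 of 7328 in CDK4, 4606 of 7655 in CDK6 and 4697 of 7689 in dual knockdown, from 3622 of 7385, 3416 of 7260, 3778 of 7659 and 3790 of 7595.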
